A study of Mus musculus with 12 samples.

Results

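The 42 genes described here carry out DNA replication or supply its nucleotides, and they were followed in regulatory T cells (Tregs) from mouse pancreatic islets and lymph nodes. They were taken by symbol from a list of G1/S and S phase genes, by a rule that uses no measured value, although the list was drawn up with earlier results of these data known. All 42 symbols were found among the 23361 genes of the deposited table of rescaled counts, and all 42 were among the 10868 genes tested. The study sequenced RNA of Tregs in an autoimmune diabetes model and compared genotypes and tissues, with 3 libraries in each of 4 groups. Wt islet and Wt NDL are Tregs of wild-type genotype from islets, the site of attack, and from non-draining lymph nodes. Lag3 islet and Lag3 NDL are the corresponding Tregs deficient in Lag3, an inhibitory receptor of T cells that binds MHC class II. The question its title raises is whether Lag3 holds back the proliferation of Tregs. All libraries are labelled cytoplasmic RNA. The sources used here do not give the strain, age, sorting markers, number of animals pooled or the cells in which Lag3 was deleted.

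DNA replication starts at origins where the origin recognition complex, with Cdc6 and Cdt1, loads the ring of Mcm proteins in G1, a step called licensing. At the onset of S phase, Cdc45 and the GINS complex turn the ring into an active helicase, and primase, the replicative polymerases and the sliding clamp Pcna copy the DNA. Deoxynucleotides come from ribonucleotide reductase, thymidylate synthase and related enzymes, and many of these genes are transcribed under E2F factors as a cell leaves quiescence. Tregs in an inflamed tissue can divide, whereas most T cells of a resting lymph node are outside S phase, so these genes serve as a common readout of cycling cells. In bulk samples, fewer cycling cells and less RNA per cycling cell cannot be told apart.

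Promoters of these genes were searched for short motifs, since E2F-type sequences are known from several of them. RefSeq promoter windows (GRCm38.p6, 250 bases before to 50 bases after an annotated start) matched 36 of the 42 genes, and Mcm4, Gins1, Gins2, Pole, Prim2 and Rfc2 had no entry. An E2F-type sequence, taken as TTTCCCGC, TTTCGCGC, TTTGCCGC or TTTGGCGC on either strand with overlapping matches allowed, lay in at least 1 window of 13 of the 36 genes (36.1%). Of all 27025 genes with a window, 704 (2.6%) held one, and 3.26% of the genes of the deposited table did. Counting only the 250 bases before the start gave 25% of the replication genes and 2.16% of all genes. TTTCGCGC was the most frequent of the 4, in 22.2% of the replication genes against 0.374% of all genes. CCAAT lay in 66.7% of the replication genes against 41.1% of all genes, and GGGCGG in 77.8% against 38.2%. Such a match is a run of letters and not a measured binding site, and no binding was measured in this study.

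Stretches of 120 bases are shown for 4 genes, because 3 of them carry the E2F-type runs at different spacing and Rrm2, whose difference was the best supported, carries none in its window. Capitals mark the E2F-type matches, merged where they overlap, and in Rrm2 the CCAAT box. The Mcm5 stretch is chr8:75109302-75109421 on the plus strand, from base -207 to base -88 before the start. It holds 2 overlapping matches.
Mcm5: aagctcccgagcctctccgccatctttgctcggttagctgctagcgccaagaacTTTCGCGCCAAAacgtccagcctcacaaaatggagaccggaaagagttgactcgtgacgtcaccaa
The Mcm6 stretch is chr1:128359721-128359840 on the minus strand, from base -135 to base -16, with 3 matches.
Mcm6: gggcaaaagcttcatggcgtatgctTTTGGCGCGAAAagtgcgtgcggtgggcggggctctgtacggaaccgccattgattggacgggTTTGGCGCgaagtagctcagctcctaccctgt
The Pola1 stretch is chrX:93632230-93632349 on the minus strand, from base -194 to base -75, with 1 match.
Pola1: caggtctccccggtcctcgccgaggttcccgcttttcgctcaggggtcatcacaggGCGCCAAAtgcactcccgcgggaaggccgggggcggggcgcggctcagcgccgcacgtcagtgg
The Rrm2 stretch is chr12:24708121-24708240 on the plus strand, from base -133 to base -14.
Rrm2: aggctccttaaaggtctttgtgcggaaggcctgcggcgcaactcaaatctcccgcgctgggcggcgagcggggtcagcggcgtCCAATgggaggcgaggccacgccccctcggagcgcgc

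Levels are given in CPM, a library's rescaled counts scaled to a common total with TMM-type factors, so that 1 CPM is about 15.3 rescaled counts. The 3 libraries of a group are called 1a, 2 and 1b, because the column headers number them 1, 2 and 1 again, and values are listed in that order. Totals lay between 15232498 and 15370098 in all 12 libraries after the authors' rescaling, so the depth behind a value is unknown. Foxp3, which defines Tregs, stood at 224 to 483 CPM in islet and 311 to 654 CPM in NDL libraries, and all 7 Treg markers were above 0 in every library. Lag3 itself was at 2.76, 3.52 and 8.14 CPM in Wt islet and at 0.0754, 0 and 0 in Lag3 islet libraries. In NDL it was under 1 CPM in both genotypes (0.123, 0.303 and 0.435 in Wt, 0.0479, 0 and 0.225 in Lag3), so it does not check the genotype labels there. Library Lag3 islet 2 had the lowest mean log2 level over all tested genes, 3.50 against 3.84 to 4.48 in the other 11. It and Lag3 NDL 1b had the largest shares of tested genes under 1 CPM, 30.3% and 29.5%. Ribosomal RNA from Rn45s took 1.26 to 1.68% of the signal in the 4 libraries called 1b and 0.149 to 0.571% elsewhere. Differences are log2 differences of CPM + 1 with their standard error (SE) from limma, which understate the change of weakly expressed genes, and adjusted p is over all 10868 genes. Separate animals or cultures are not named for the libraries of a group, so p-values measure only the spread between samples that may be technical replicates.

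Replication genes stood higher in islet than in NDL Tregs. Added up, their levels gave 3890, 5820 and 4790 CPM in Wt islet and 3900, 2690 and 4120 CPM in Lag3 islet libraries. In NDL it was 1870, 1970 and 2450 CPM in Wt and 1690, 2180 and 2380 CPM in Lag3 libraries. Every islet library was above every NDL library, and the lowest islet value was that of Lag3 islet 2. By group the sums were 4830 ± 966 (Wt islet), 3570 ± 772 (Lag3 islet), 2100 ± 309 (Wt NDL) and 2080 ± 353 CPM (Lag3 NDL, each SD, n = 3). Pcna gave the largest part of these sums, with means of 729 ± 211 CPM in islet and 328 ± 108 CPM in NDL libraries (SD, n = 6).

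**Figure D1:**
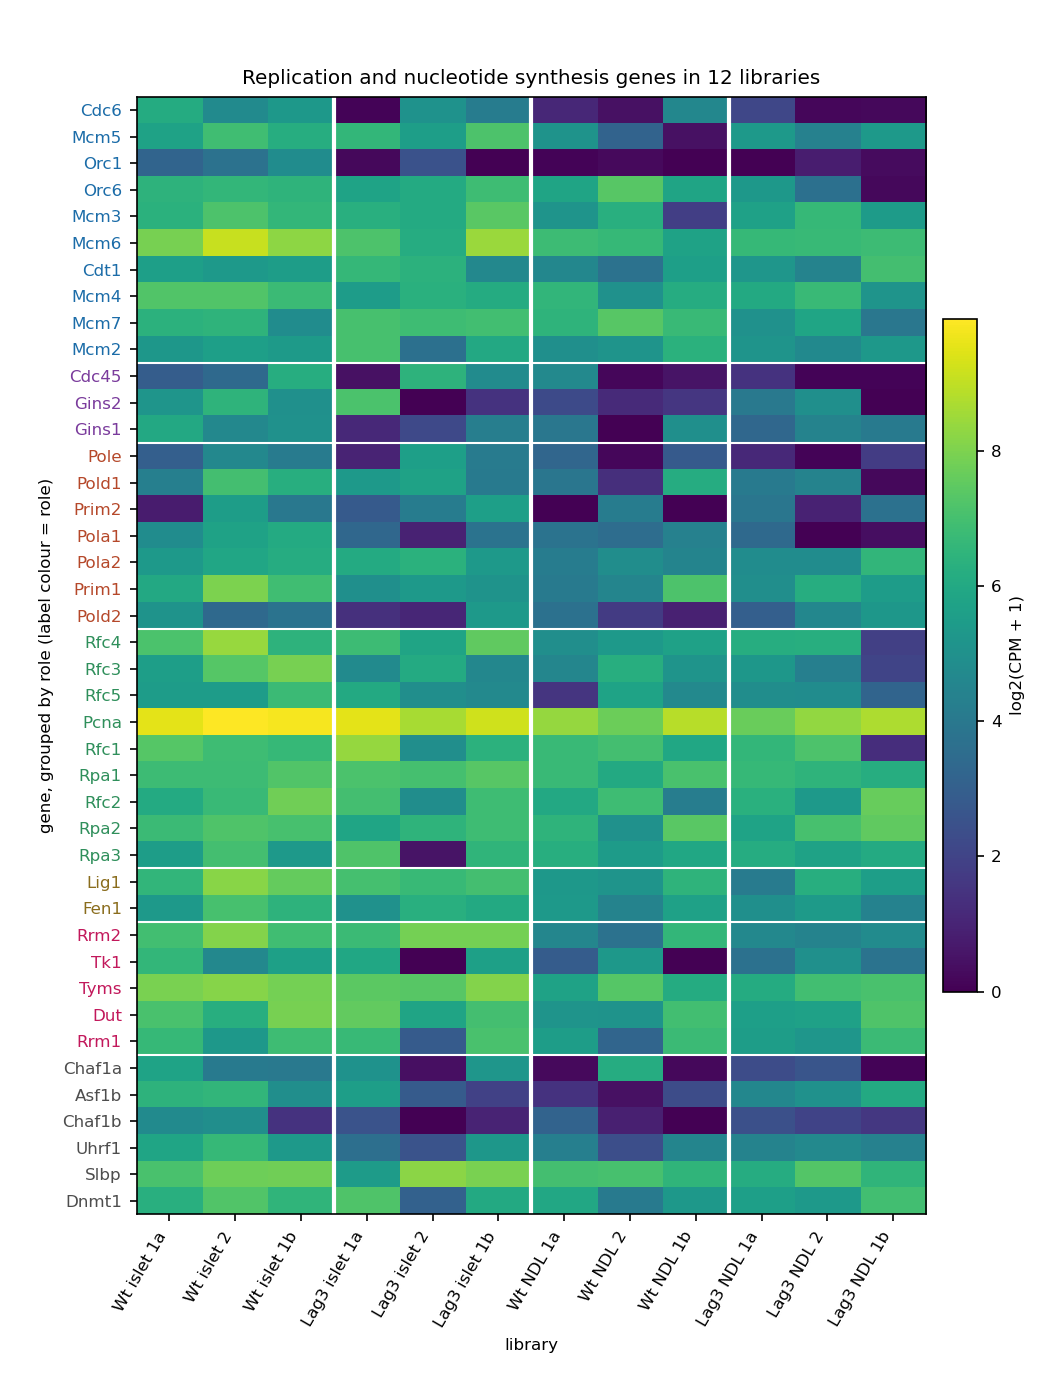
Heat map of the 42 genes (rows, by role) in the 12 libraries (columns, by group), coloured by log2(CPM + 1). Brighter colours stand for higher levels, islet columns are brighter than NDL columns for most rows, Pcna is high in all 12 libraries and Orc1 is near 0 in 8 of them.

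Averaged over both genotypes, 41 of the 42 genes had a higher mean log2 level in islet than in NDL libraries. Their median difference was 1.21, against -0.04 over all tested genes, of which 47.9% were higher in islet. Rrm2 alone passed the threshold of adjusted p under 0.05, where 0.819% of all tested genes passed in the same direction. At an unadjusted p under 0.05, 15 of the 42 were higher and 0 lower, against 5.81% of all tested genes higher. In 4 genes (Rrm2, Lig1, Tyms and Mcm5) the 6 islet libraries did not overlap the 6 NDL libraries, against 1.32% of all tested genes. Without Lag3 islet 2, 42 of 42 differences were positive, with a median of 1.27. Within the 4 libraries called 1b the median was 1.40 with 36 of 42 positive, and within the other 8 it was 0.98 with 40 of 42 positive. Over all tested genes the medians were 0.04, 0.17 and -0.17 in that order. These within-column values were added after the data had been seen and have no test.

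RNA of other cells also differed between the tissues. The 13 exocrine pancreas markers summed to 3150, 178 and 766 CPM in Wt islet and 568, 33.6 and 344 CPM in Lag3 islet libraries, with 6 to 12 of the 13 above 0. In NDL libraries they summed to at most 4.91 CPM, and Cpb1, Cpa1 and Ctrb1 were listed at 0 in all 6. Endocrine markers summed to 2.20 to 228 CPM in islet and at most 0.545 CPM in NDL libraries. B cell markers summed to 175 to 591 CPM in islet and 52.9 to 189 CPM in NDL libraries, led by Cd74 and Cd79b, while Pax5 was at 0 in all 12. Markers of CD8 T and NK cells, mainly Nkg7, summed to 67.1 to 442 CPM in islet and 19.6 to 114 CPM in NDL libraries. Myeloid markers reached 103 CPM in islet and 37.4 CPM in NDL libraries, and were near 0 in some libraries of both. Among Wt islet libraries the one with the most exocrine RNA, Wt islet 1a, had the lowest replication sum (3890 CPM). Among Lag3 islet libraries the one with the least exocrine RNA, Lag3 islet 2, had the lowest (2690 CPM). The part of these cells in the tissue difference was not tested.

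**Figure D2:**
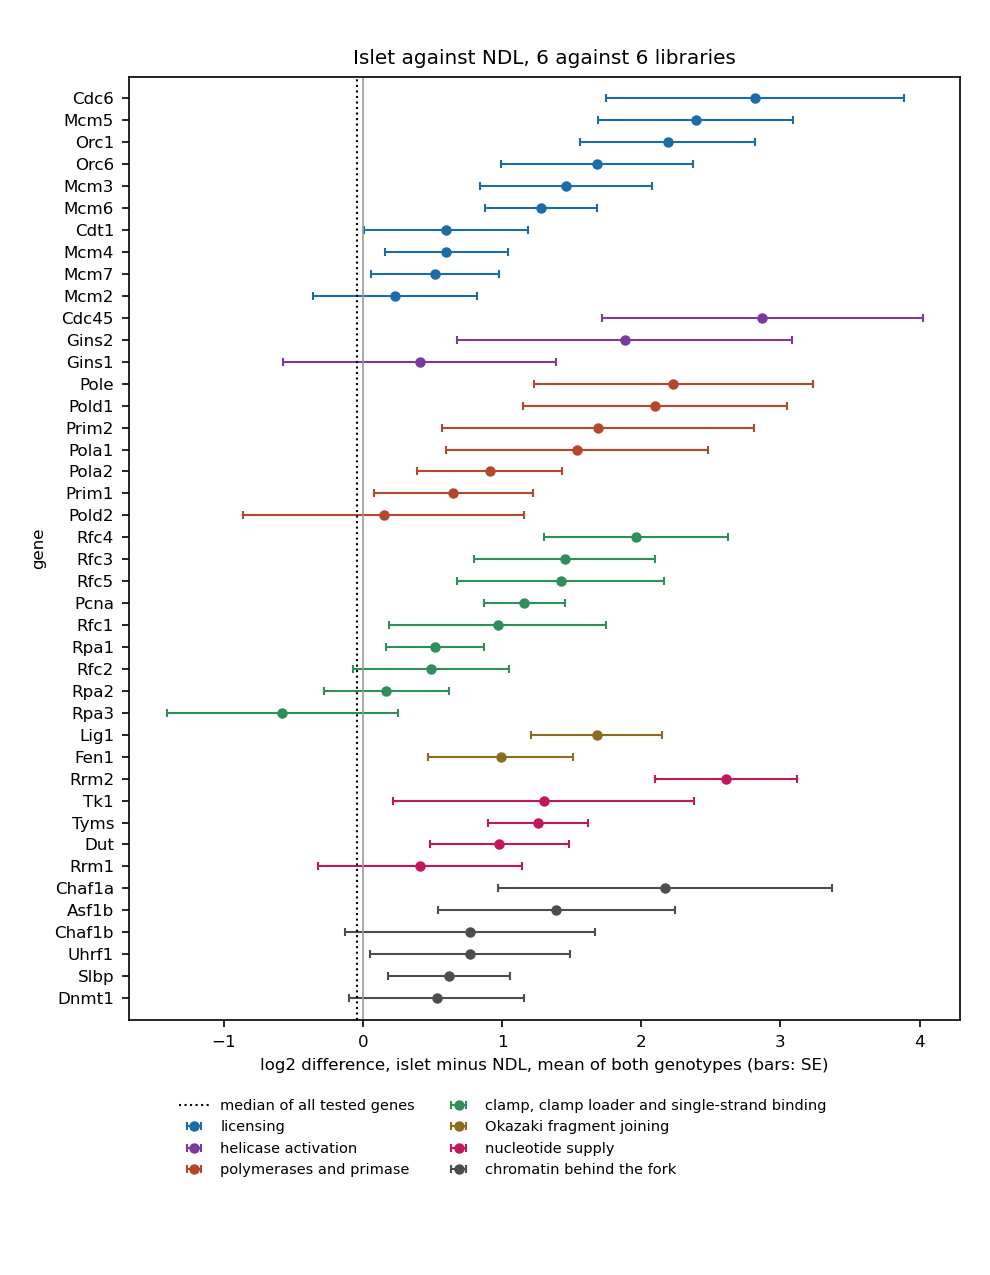
Log2 difference of islet against NDL, mean of both genotypes, for each of the 42 genes with its SE, grouped by role, and the median of all tested genes (-0.04) as a dotted line. All points but Rpa3 lie above 0, and Rrm2 is the one gene past the threshold.

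Among the 10 licensing genes, all 10 differences between the tissues were positive (median 1.37), 6 had an unadjusted p under 0.05 and none passed the threshold. Of all tested genes, 5.81% were higher at that unadjusted p and 0.819% passed in that direction. Orc1, the largest subunit of the origin recognition complex, stood at 8.35, 12.5 and 27.8 CPM in Wt islet and at 0.151, 4.74 and 0 CPM in Lag3 islet libraries. In all 6 NDL libraries it was under 1 CPM, the highest being 0.757 CPM. Orc1 was thus above 1 CPM in 4 of 12 libraries, all from islets, and its log2 difference was 2.19 ± 0.63 (adjusted p = 0.131). Mcm5, a subunit of the Mcm ring, stood at 52.2, 119 and 72.9 CPM in Wt islet and 94.4, 46.3 and 145 CPM in Lag3 islet libraries. In NDL libraries it was at 33.4, 7.88 and 0.362 CPM in Wt and 39.9, 19.9 and 41.2 CPM in Lag3. The tissues did not overlap, and the log2 difference was 2.39 ± 0.70 (adjusted p = 0.139). Without Wt NDL 1a it became 2.93 with an adjusted p of 0.0471.

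The 6 Mcm genes encode the subunits of a single ring, yet their RNA did not stand at 1 level. Per kilobase of transcript, Mcm6 was the highest of the 6 in 9 of 12 libraries and Mcm7 in the other 3. In Wt islet libraries Mcm6 stood at 81.4, 189 and 106 CPM per kb, while Mcm2 was at 11.1, 14.2 and 12.3 CPM per kb. The ratio of the highest to the lowest of the 6 ran from 3.38 in Lag3 NDL 1a to 23.7 in Wt NDL 2, apart from Wt NDL 1b, where Mcm5 was near 0 at 0.107 CPM per kb. Tissue differences ranged from 0.23 ± 0.59 for Mcm2 to the 2.39 of Mcm5. Mcm6, whose promoter stretch holds the most E2F-type matches of the windows shown, had 1.28 ± 0.40 (adjusted p = 0.183). Cdc6, the loader of the ring, had 2.82 ± 1.07 (adjusted p = 0.292) and was under 1 CPM in 4 libraries.

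Helicase activation is represented by Cdc45 and the GINS subunits Gins1 and Gins2. All 3 had positive differences, from 0.41 to 2.87, and their libraries were scattered widely. Cdc45 stood at 6.56, 9.54 and 72.1 CPM in Wt islet and 0.377, 86.6 and 26.9 CPM in Lag3 islet libraries. In NDL it was at 24.7, 0.121 and 0.435 CPM in Wt and 1.73, 0.0631 and 0.0748 CPM in Lag3. The tissues overlapped, through Lag3 islet 1a and Wt NDL 1a, and the log2 difference of 2.87 ± 1.15 had an adjusted p of 0.327. Gins2 stood at 35.9, 87.7 and 31.3 CPM in Wt islet and 140, 0 and 1.73 CPM in Lag3 islet libraries. In NDL it was at 3.75, 1.27 and 1.96 CPM in Wt and 15.2, 30.4 and 0 CPM in Lag3. High values were thus found in all 3 Wt islet libraries but in 1 of 3 from Lag3 islets, and the difference of 1.88 ± 1.20 had an adjusted p of 0.589. Gins2 exons overlap those of Gse1 on the other strand by 2758 bases. The sources do not say whether counting used the strand, so reads of Gse1 may be among these values.

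Polymerase and primase genes had positive differences in 7 of 7, with a median of 1.54. At an unadjusted p under 0.05, 2 were higher, against 5.81% of all tested genes. Pole, the catalytic subunit of the leading-strand polymerase, stood at 7.04, 24.4 and 16.7 CPM in Wt islet and 0.980, 48.2 and 16.9 CPM in Lag3 islet libraries. NDL libraries held 8.66, 0.121 and 6.01 CPM in Wt and 1.20, 0.0631 and 2.39 CPM in Lag3. The tissues overlapped and the difference was 2.23 ± 1.00 (adjusted p = 0.402). Pold1, the catalytic subunit of polymerase delta, which copies mainly the lagging strand, stood at 18.6, 124 and 74.4 CPM in Wt islet and 39.7, 51.9 and 16.2 CPM in Lag3 islet libraries. NDL libraries held 13.8, 1.51 and 70.4 CPM in Wt and 15.6, 21.0 and 0.150 CPM in Lag3. Wt NDL 1b and Lag3 NDL 2 lay inside the islet range, and the difference was 2.10 ± 0.95 (adjusted p = 0.407). The smallest difference of the class was that of Pold2, an accessory subunit of the same enzyme, at 0.15 ± 1.01.

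Of the clamp, clamp loader and single-strand binding genes, 8 of 9 had positive differences (median 0.97). At an unadjusted p under 0.05, 3 were higher, against 5.81% of all tested genes. Pcna, the ring that tethers polymerases to DNA, had the highest level per kilobase of the 42 genes in all 12 libraries, with means of 480 CPM per kb in islet and 216 CPM per kb in NDL libraries. It stood at 743, 991 and 899 CPM in Wt islet and 740, 401 and 600 CPM in Lag3 islet libraries. In NDL libraries it was at 333, 210 and 468 CPM in Wt and 205, 325 and 424 CPM in Lag3. The tissues overlapped through Lag3 islet 2, the lowest islet value, which lay below Lag3 NDL 1b and Wt NDL 1b. Its log2 difference of 1.16 ± 0.29 just missed the threshold (adjusted p = 0.0579), and without Lag3 islet 2 it was 1.25 (adjusted p = 0.0312). Removing Lag3 NDL 1b or Wt NDL 1b also took it past the threshold, at 0.0380 and 0.0462.

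Rfc4, a subunit of the loader that opens the Pcna ring, stood at 138, 340 and 84.5 CPM in Wt islet and 112, 54.8 and 181 CPM in Lag3 islet libraries. NDL libraries held 29.5, 40.3 and 51.5 CPM in Wt and 72.2, 74.2 and 2.69 CPM in Lag3. Only Lag3 islet 2 lay within the NDL range, and the difference was 1.96 ± 0.66 (adjusted p = 0.219). Among the subunits of the single-strand binding protein RPA, Rpa1 had the smallest residual spread of the 42 genes (SD 0.33 log2 units) and a difference of 0.52 ± 0.35. Rpa2 had 0.17 ± 0.45, and the group means of islet and NDL libraries were 109 and 110 CPM. Rpa3 was the 1 gene with a negative difference, -0.58 ± 0.83 (adjusted p = 0.842). It stood at 45.8, 124 and 41.3 CPM in Wt islet, 149, 0.441 and 89.6 CPM in Lag3 islet, 74.3, 43.1 and 59.7 CPM in Wt NDL and 71.2, 52.5 and 67.5 CPM in Lag3 NDL libraries. The near-0 value was again that of Lag3 islet 2, and without this library the difference was 0.44.

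Okazaki fragment joining needs Fen1, which trims the flap, and Lig1, which seals the nick. Lig1 stood at 92.8, 290 and 191 CPM in Wt islet and 129, 104 and 125 CPM in Lag3 islet libraries. NDL libraries held 38.9, 34.5 and 88.7 CPM in Wt and 16.8, 74.6 and 47.3 CPM in Lag3. No islet library overlapped the NDL range, although Wt islet 1a and Wt NDL 1b were close, and the log2 difference was 1.68 ± 0.47 (adjusted p = 0.109). Fen1 stood at 40.0, 133 and 84.6 CPM in Wt islet and 31.6, 75.7 and 65.0 CPM in Lag3 islet libraries. NDL libraries held 39.3, 20.8 and 50.5 CPM in Wt and 29.8, 41.7 and 20.6 CPM in Lag3. Its tissues overlapped and the difference was 0.99 ± 0.52 (adjusted p = 0.493). Fen1 lies opposite an annotated antisense gene, Gm10143, along 1908 exonic bases, and the sources do not say whether counting used the strand.

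Nucleotide supply genes had positive differences in 5 of 5, with a median of 1.26. Of all tested genes, 0.819% passed the threshold as higher, and of these 5 the 1 gene past it was Rrm2. It encodes the small subunit of ribonucleotide reductase, which is made mainly in S phase. Rrm2 (chromosome 12, 24708241 to 24714146, plus strand) stood at 121, 272 and 120 CPM in Wt islet and 108, 231 and 236 CPM in Lag3 islet libraries. In NDL it was at 23.0, 12.4 and 96.3 CPM in Wt and 24.1, 20.7 and 26.9 CPM in Lag3 libraries. Every islet library was above every NDL library, and Wt NDL 1b was the one NDL library near the islet range. Means were 182 ± 72.7 CPM in islet and 33.9 ± 31.0 CPM in NDL libraries (SD, n = 6), and the log2 difference was 2.61 ± 0.51 (adjusted p = 0.0140, limma). Leaving out 1 library at a time gave 2.30 to 3.05. The call was lost without Wt islet 2 (2.41, adjusted p = 0.0513) and when every gene above 0 in any library was tested (adjusted p = 0.0640).

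Tyms, thymidylate synthase, stood at 245, 286 and 234 CPM in Wt islet and 175, 163 and 272 CPM in Lag3 islet libraries. NDL libraries held 52.0, 159 and 67.9 CPM in Wt and 68.8, 121 and 137 CPM in Lag3. The tissues did not overlap, by a narrow gap between Lag3 islet 2 and Wt NDL 2, and the difference was 1.26 ± 0.36 (adjusted p = 0.128). The table also has a row for a processed copy, Tyms-ps, and reads could be split between the rows. The gene of the large reductase subunit, Rrm1, had a difference of 0.41 ± 0.73, and its lowest values were 6.28 and 8.60 CPM in Lag3 islet 2 and Wt NDL 2. Whether it differed less than Rrm2 was not tested. Dut, which removes dUTP, had 0.98 ± 0.50 and the thymidine salvage kinase Tk1 had 1.30 ± 1.08, neither past the threshold.

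The chromatin and histone genes (Chaf1a, Chaf1b, Asf1b, Uhrf1, Dnmt1 and Slbp) had positive differences in 6 of 6, with a median of 0.77. None reached an unadjusted p under 0.05, where 5.81% of all tested genes were higher. Chaf1a, the large subunit of the histone chaperone CAF-1, stood at 53.8, 16.3 and 15.5 CPM in Wt islet and 32.9, 0.330 and 36.2 CPM in Lag3 islet libraries. NDL libraries held 0.184, 71.1 and 0.145 CPM in Wt and 3.93, 5.11 and 0.0748 CPM in Lag3. The highest of the 12 values was in an NDL library, and the difference was 2.17 ± 1.20 (adjusted p = 0.519). Chaf1a exons overlap those of Ubxn6 on the other strand by 1862 bases, so the same limit holds as for Gins2. Asf1b, a histone chaperone that hands H3 and H4 to CAF-1, stood at 85.3, 92.9 and 29.3 CPM in Wt islet and 46.4, 6.17 and 2.84 CPM in Lag3 islet libraries. NDL libraries held 1.78, 0.363 and 3.98 CPM in Wt and 23.3, 31.4 and 64.7 CPM in Lag3. Its order by group was thus opposite in the genotypes, and the difference over both was 1.39 ± 0.85 (adjusted p = 0.563).

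**Figure D3:**
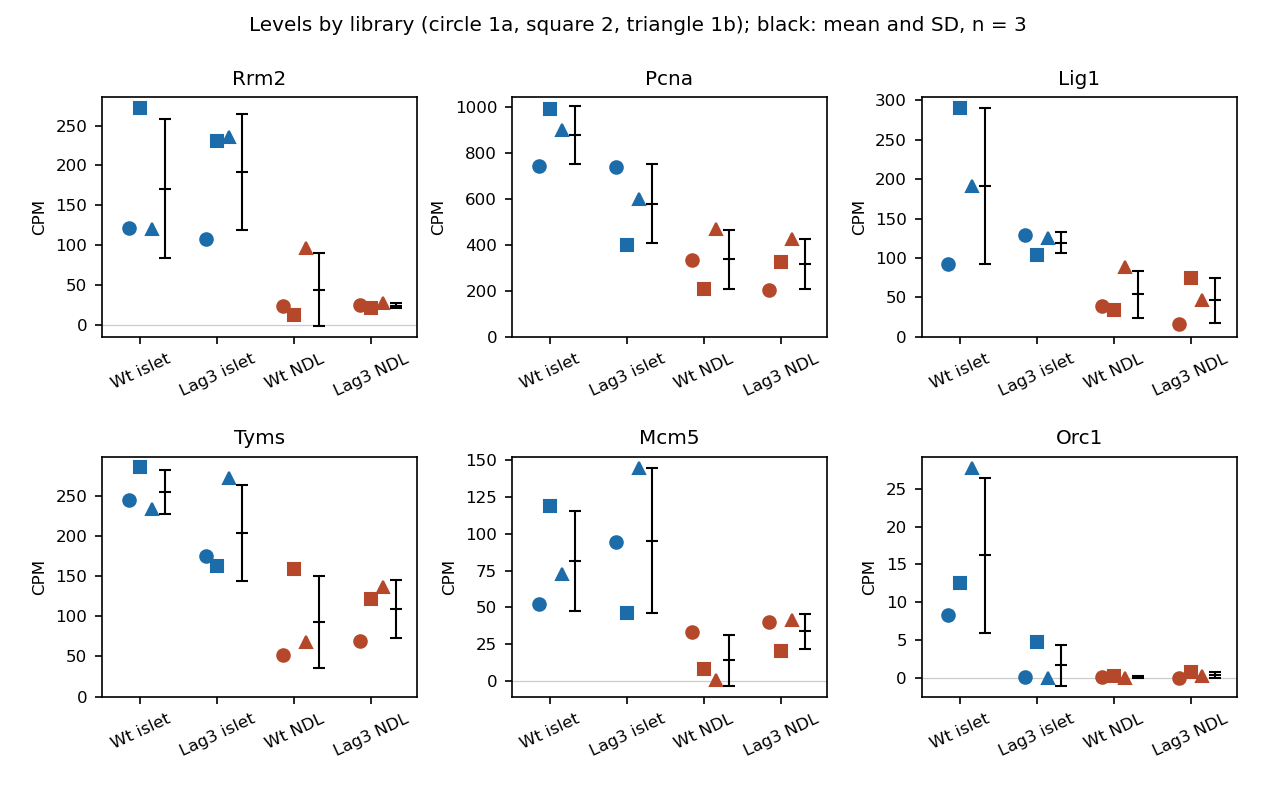
CPM of Rrm2, Pcna, Lig1, Tyms, Mcm5 and Orc1 in each library (points) by group, with the group mean and SD. Islet points lie above all NDL points for Rrm2, Lig1, Tyms and Mcm5, overlap them for Pcna, and for Orc1 are above 1 CPM in all 3 Wt but only 1 Lag3 islet library.

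Split by genotype, the tissue difference was larger in Wt than in Lag3-deficient Tregs for 33 of the 42 genes (78.6%, against 57.7% of all tested genes). The tissue comparisons of the genotypes share no library. In Wt, 40 of 42 differences were positive with a median of 1.75, against 0.10 over all genes. In Lag3-deficient Tregs 29 of 42 were positive with a median of 0.62, against -0.15 over all genes. Both differences were positive for 27 genes (64.3%), against 28.7% of all tested genes. With 40 and 29 of 42 positive, 27 is the fewest possible, so this count shows no match between the genotypes gene by gene. Across genes the differences in Wt and in Lag3-deficient Tregs had a Pearson correlation of -0.12 for the 42 genes and 0.29 for all tested genes. Without Lag3 islet 2 the Lag3-deficient median was 1.01, with 32 of 42 positive, against 0.04 over all tested genes. The order of the genotypes also turned with the columns: within the libraries called 1b the medians were 1.15 in Wt and 1.40 in Lag3-deficient Tregs, and within the others 1.57 and 0.44. Over all tested genes these medians were 0.03 and 0.18 within 1b, and 0.11 and -0.47 within the others. Part of the turn was thus shared by all tested genes.

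No replication gene passed the threshold within either genotype (limma), where 0.184% of all tested genes passed in Wt and 0.12% in Lag3-deficient Tregs. In Wt, 14 of the 42 were higher in islet at an unadjusted p under 0.05, against 5.01% of all genes, and 18 had islet libraries all above the NDL libraries, against 8.37%. In Lag3-deficient Tregs the counts were 5, against 3.42%, and 7, against 5.44%. Orc1 led in Wt with 3.83 ± 0.90 (adjusted p = 0.106), where Lag3-deficient Tregs had 0.54 ± 0.90. Rrm2 led in Lag3-deficient Tregs with 2.88 ± 0.71 (adjusted p = 0.136), beside 2.34 ± 0.71 in Wt. By role, all 6 chromatin and histone genes had positive differences in Wt (median 2.30), against 2 of 6 in Lag3-deficient Tregs (median -0.60). The mean log2 level of these 6 was 4.92, 2.86 and 4.57 in Lag3 islet and 4.26, 4.49 and 4.27 in Lag3 NDL libraries, so that Lag3 islet 2 alone lay below the NDL libraries. Polymerase and primase genes had medians of 1.86 and 1.34.

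**Figure D4:**
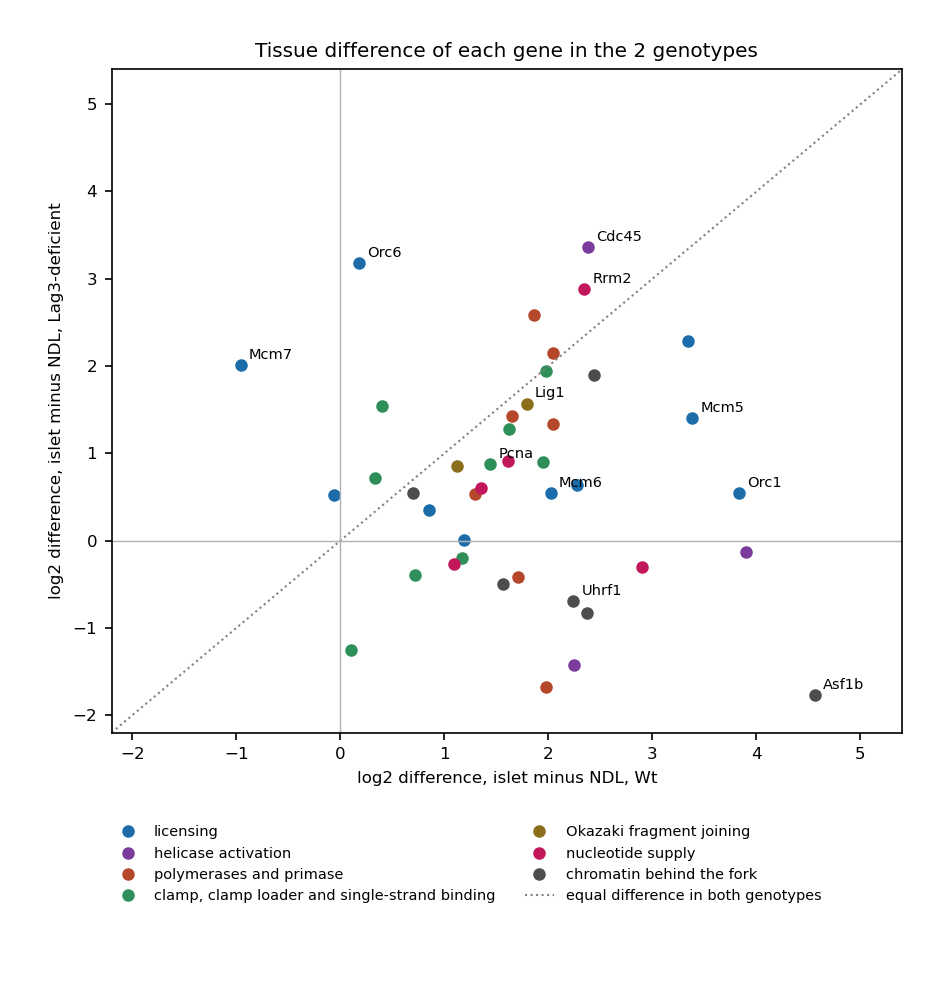
Log2 difference of islet against NDL in Wt (x axis) and in Lag3-deficient Tregs (y axis) for the 42 genes. In 33 genes the Wt difference is the larger one, Rrm2 and Lig1 are positive on both axes, and Asf1b lies farthest from the line of equal differences.

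In islets, Lag3-deficient against Wt Tregs gave negative differences for 34 of the 42 genes and positive ones for 8, with a median of -0.63 against -0.22 over all tested genes. None passed the threshold (limma), and neither did any tested gene (0%). At an unadjusted p under 0.05, 0 were higher and 5 lower in Lag3-deficient Tregs, against 5.74% of all genes in either direction. Libraries did not overlap for 1 higher gene, Mcm7, and 7 lower genes, Orc1, Prim1, Pola1, Uhrf1, Gins1, Mcm4 and Pcna, against 9.32% of all genes. Scaling mattered here: with median-of-ratios (RLE) factors the median of all genes was -0.03, a shift of more than 0.1, and that of the replication genes -0.39, with 1 gene lower at an unadjusted p under 0.05. Without Lag3 islet 2, the library with the lowest replication sum, the median was -0.42 and 15 of 42 were positive. In that setting the median over all tested genes was 0, with 49.8% positive. Within the libraries called 1b the median of the 42 genes was -0.31, against 0.05 over all tested genes. Within the others it was -0.65, against -0.42. This comparison uses the same islet libraries as the tissue comparisons above.

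Orc1 had the smallest p in islets, with 8.35, 12.5 and 27.8 CPM in Wt against 0.151, 4.74 and 0 CPM in Lag3 libraries, a log2 difference of -3.03 ± 0.90 (adjusted p = 0.850). Prim1, the catalytic subunit of primase, stood at 63.7, 253 and 119 CPM in Wt and 29.8, 39.6 and 33.8 CPM in Lag3 libraries, and its difference was -1.83 ± 0.81 (adjusted p = 0.851). Pola1, the catalytic subunit of polymerase alpha, with which primase starts each fragment, stood at 28.0, 52.3 and 67.3 CPM in Wt and 9.12, 0.936 and 12.8 CPM in Lag3 libraries. Its difference was -2.87 ± 1.33 (adjusted p = 0.851). For all 3 genes the Wt libraries lay above the Lag3 libraries, and for none did the test over all genes call a change. Mcm7, in contrast, was at 82.8, 88.8 and 27.5 CPM in Wt and 132, 116 and 122 CPM in Lag3 libraries (1.05 ± 0.66, adjusted p = 0.947). Its exons overlap those of Ap4m1 and Cops6 on the other strand by 321 and 64 bases.

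In NDL the genotypes had nearly equal replication sums, and 24 of the 42 genes had positive and 18 negative differences, with a median of 0.28 against -0.02 over all tested genes. The median was -0.08, with 19 of 42 positive, without Wt NDL 2, 0.05 without Lag3 NDL 2 and 0.18 without Wt NDL 1a. Over all tested genes the medians were -0.08, -0.06 and 0.06 in that order. Within the libraries called 1b the median of the 42 genes was -0.14, with 17 of 42 positive, against -0.01 over all tested genes. Within the others it was 0.29, against 0.02. None passed the threshold (limma), nor did any tested gene (0%). At an unadjusted p under 0.05, 2 were higher and 2 lower, against 2.72% of all genes, and 1 higher and 3 lower genes had libraries that did not overlap, against 7.53%. Orc6, a small subunit of the origin recognition complex, stood at 54.7, 163 and 55.1 CPM in Wt and 38.6, 11.8 and 0.150 CPM in Lag3 libraries (-3.26 ± 0.98). Asf1b stood at 1.78, 0.363 and 3.98 CPM in Wt and 23.3, 31.4 and 64.7 CPM in Lag3 libraries (3.81 ± 1.20). Mcm7 stood at 87.8, 164 and 108 CPM in Wt and 31.9, 57.5 and 14.3 CPM in Lag3 libraries (-1.92 ± 0.66). In all 3 genes the genotypes did not overlap, and each had an adjusted p of 1.

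Averaged over both tissues, 33 of 42 genotype differences were negative and 9 positive, with a median of -0.39 against -0.13 over all genes. This median was -0.14, with 17 of 42 positive, without Lag3 islet 2 and -0.23 without Lag3 NDL 1b. Over all tested genes it was -0.01 and -0.09 in these settings. None passed (limma; 0% of all tested genes), and 0 were higher and 4 lower at an unadjusted p under 0.05, against 3.68% of all genes. Pola1 was lowest, at -2.76 ± 0.94, followed in p by Orc6 at -1.76 ± 0.69 and the clamp loader subunit Rfc3 at -1.63 ± 0.65, each with an adjusted p of 0.999. Rfc3 stood at 46.7, 158 and 241 CPM in Wt islet, 25.9, 66.4 and 23.1 CPM in Lag3 islet, 22.8, 74.2 and 34.3 CPM in Wt NDL and 37.5, 18.6 and 3.07 CPM in Lag3 NDL libraries. Its Wt and Lag3 libraries overlapped in each tissue.

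The test of whether the genotype difference depended on tissue called none of the 42 genes and no other gene (0%, limma). At an unadjusted p under 0.05 it gave 2 positive and 2 negative replication genes, against 4.02% of all genes in either direction. Asf1b had -6.32 ± 1.69, since its Lag3-deficient libraries were higher than Wt in NDL and mostly lower in islets. Mcm7 had 2.97 ± 0.93, the opposite pattern, and Orc1 -3.29 ± 1.27, each with an adjusted p of 1. Over the 42 genes 33 values were negative, with a median of -0.76 against -0.24 over all genes. Each value equals the tissue difference in Lag3-deficient Tregs minus that in Wt. The 33 are therefore the same genes counted above as larger in Wt, and not a further result. Within the libraries called 1b the median was -0.16, with 20 of 42 positive, and within the others -1.11, with 10 positive. Over all tested genes these medians were 0.15 and -0.52. Without Wt NDL 1a the median of the 42 genes was -0.45, against -0.28 over all tested genes.

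Other genes of the pathway had smaller median differences between tissues than the 42 genes. Of all tested genes, 47.9% were higher in islet, 5.81% were higher at an unadjusted p under 0.05 and 0.819% passed in that direction. Of 32 further replication factors, 21 had positive tissue differences (median 0.42), 5 were higher at an unadjusted p under 0.05 and none passed. Pold3, a subunit of polymerase delta, had 2.39 ± 0.57 (adjusted p = 0.0514), the chromatin remodeller Hells 2.36 ± 0.63 (0.0921) and the clamp unloading factor Atad5 2.51 ± 0.96 (0.295, all adjusted p). Of 27 genes of purine, pyrimidine and folate synthesis, 15 were positive (median 0.09), 3 higher at an unadjusted p under 0.05 and none past the threshold. Among them, the purine synthesis genes Paics and Adss had 0.89 ± 0.40 and 0.71 ± 0.34. Of 24 checkpoint and fork repair genes, 15 were positive (median 0.19), 2 higher at an unadjusted p under 0.05 and none passed. The differences were 2.09 ± 0.90 for Rad51ap1, 2.47 ± 1.13 for Bard1 and 1.83 ± 0.92 for Fancd2. Whether these lists differ from the 42 genes was not tested.

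Of 27 G1/S control genes, 16 were positive (median 0.17), 5 were higher and 1 lower at an unadjusted p under 0.05, and 1 passed. Of all 10868 tested genes, 5.81% were higher and 593 lower at that unadjusted p, and 0.819% passed as higher. Ccna2, the cyclin of S phase and G2, stood at 142, 102 and 35.3 CPM in Wt islet and 97.8, 106 and 193 CPM in Lag3 islet libraries. NDL libraries held 33.5, 21.7 and 29.8 CPM in Wt and 4.36, 20.6 and 21.3 CPM in Lag3. Ccna2 rose by 2.35 ± 0.56 on the log2 scale (adjusted p = 0.0486), with no overlap between the tissues. The call was lost without any 1 library other than Wt islet 1b and Lag3 NDL 1b (adjusted p of 0.0567 to 0.152), and with the replicate block (0.0728). It was also lost with column totals only (0.0509), a pseudocount of 0.25 (0.0586), no filter (0.106), voom weights (0.0881) and without all libraries called 1b (0.0943). Cdk6, a kinase of G1, had 2.07 ± 0.62, and the kinase inhibitor Cdkn1a had 3.20 ± 0.97, neither past the threshold. With voom weights Cdkn1a had 5.38 (adjusted p = 0.0257). Among general cycling markers, the topoisomerase Top2a rose by 2.25 ± 0.38 (adjusted p = 0.00522, limma). Its range was 284 to 458 CPM in islet and 39.9 to 149 CPM in NDL libraries. Mki67, which marks all cycling phases, had 1.93 ± 0.48 (adjusted p = 0.0575). It stood at 241, 657 and 528 CPM in Wt islet, 100, 158 and 420 CPM in Lag3 islet, 68.0, 33.3 and 156 CPM in Wt NDL and 33.8, 110 and 127 CPM in Lag3 NDL libraries. The libraries highest in Mki67, Wt islet 2 and Wt islet 1b, were also the highest in summed replication genes.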

How the data were processed

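RNA of 12 Treg libraries was used as deposited in 2 gene tables whose values are a signal, namely counts that the authors rescaled to nearly equal totals (first table) and a further normalized form of 10317 genes (second table). TopHat2, DESeq2 and mm10 are named in the submitters' processing notes, without versions or roles. Depth is unknown, so no count model and no counting interval was used. CPM was computed with TMM-type scaling (30% of ratios and 5% of levels trimmed). Genes reaching 10 rescaled counts in 3 or more libraries were fitted as log2(CPM + 1) in 1 model of 4 groups with limma 3.58.1 in R 4.3.3 (trend, 8 residual degrees of freedom), with 7 comparisons and Benjamini-Hochberg adjustment over all tested genes. The script was checked on simulated data.

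The members and lists were chosen with earlier results of these data known. Named were, per role, the 2 genes of smallest p in the mean tissue comparison, genes past the threshold or of opposite sign, the 3 of smallest p in each genotype comparison and up to 3 of each further list. Others named were chosen after their values were seen. Positions and transcript lengths (of the longest coding transcript) are from GENCODE M21 (GRCm38). Exons of 14 of the 42 genes overlap a gene on the other strand. Alternatives were other scalings, pseudocounts, filters, the second table, voom weights, a replicate block and libraries left out. 1 gene that the naming rule picked is not reported here.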

Additional observations from a re-analysis of the deposited data

How the results depend on the processing

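In islet against NDL over both genotypes, 1 replication gene passed the threshold. This count was 2 with RLE size factors, with column totals only, with a filter at 50 rescaled counts, with the second deposited table and with voom weights, Pcna being the added gene in each, and 0 with no filter. It ranged from 0 to 2 when single libraries were left out, with 0 without Wt islet 2 and 2 without Lag3 islet 2, Wt NDL 1a, Lag3 NDL 1b or Wt NDL 1b. The number of positive differences stayed between 38 and 42 of 42 and their median between 0.93 and 1.27 in every setting tried. Over all genes, 100 were called, against 151 with voom weights, 40 with no filter, 45 without the columns called 1b and 65 to 106 with 1 library left out. In Wt alone 20 were called (8 to 54 over all settings) and in Lag3-deficient Tregs 13 (7 to 32). The other 6 comparisons called 0 of the 42 genes in every setting. In Lag3-deficient against Wt islets, 16 other genes passed without Lag3 islet 1b, and the median of the 42 genes ran from -0.92 to -0.39. That of all tested genes ran from -0.37 to 0.01. Of 856 values of single genes under an alternative, 822 kept their direction and side of the threshold. Of the rest, 18 lost the threshold, 15 reached it and 1 turned. Only Rrm2 and Ccna2 were past the threshold as reported, so all 18 losses were theirs, mostly of Ccna2. The share of 822 in 856 therefore does not measure how stable these calls were. The gene that turned was Rpa3, whose difference ran from -1.20 to 0.44 when single libraries were left out. The share of promoters with an E2F-type sequence was 25% in the shorter window. With the replicate block, 1 gene was again called in the tissue comparison and 0 in the others, and Ccna2 was lost (adjusted p = 0.0728). The 18 same-number pairs of libraries had a median correlation of 0.024 (-0.086 to 0.157), with 2 over 0.1, so the numbers were not taken as pairs, although 9 of 12 libraries correlated best with their own number. The cause of these changes was not tested.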

Other observations

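Values near 0 were spread unevenly over the groups. In Wt islet libraries 0.794% of the values of the 42 genes were under 1 CPM, against 9.52% in Lag3 islet, 14.3% in Wt NDL and 11.9% in Lag3 NDL libraries. Over all tested genes the shares were 18.2%, 23.9%, 20.2% and 18.1%. Of the 42 genes, 25 were above 1 CPM in all 12 libraries, and 17 fell under it in at least 1, of which 16 did so in an NDL library and 11 in an islet library. The same genes could be high in other libraries of the group: Chaf1a was at 71.1 CPM in Wt NDL 2 and at 0.184 and 0.145 CPM in Wt NDL 1a and 1b. The median residual SD was 1.23 log2 units for the 42 genes and 1.26 for all tested genes, from 0.33 for Rpa1 to 2.35 for Gins2 and Chaf1a.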
